A study of Homo sapiens with 18 samples.

Results

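The genes described here are 9 genes of the phospholipid flippases: ATP8B1, 7 of its paralogs among the P4-ATPases (ATP8A1, ATP8A2, ATP8B2, ATP8B3, ATP9A, ATP11A and ATP11B), and TMEM30A, which encodes their accessory subunit. They are 9 of the 19849 genes in the expression table and were found by their symbols. ATP8B1 was chosen by its measured fall between parental and mesenchymal cells in all 3 cell lines, so its values are given as a description and without a test. The other 8 genes were taken for their kinship with ATP8B1 or, for TMEM30A, for its role as a subunit, and their changes were tested.

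The study treated 3 human non-small cell lung cancer lines, A549, HCC827 and NCI-H358, with the cytokine TGFβ to bring about an epithelial-mesenchymal transition (EMT). The labels give 2 ng/ml TGFβ for 3 weeks, although the study's methods give a span of weeks that differed between the lines. Treated cells were moved to medium without TGFβ on the day before lysis. The untreated cells are called parental and the treated cells EMT or mesenchymal, and each of the 6 groups has 3 Affymetrix U133 Plus 2.0 arrays, 18 in all. Each group is 1 established line in culture, the treated cells are what grew through the whole treatment, and parental cells are the only control. Levels are log2 values after RMA normalization from 1 probe set per gene, which allow a gene to be compared between groups but not 1 gene with another.

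P4-ATPases use ATP to move phospholipids from the outer or luminal leaflet of a membrane to its cytoplasmic leaflet, and so keep phosphatidylserine and phosphatidylethanolamine on the cytoplasmic side. Most of them leave the endoplasmic reticulum and work only when bound to a CDC50 protein, encoded by TMEM30A or TMEM30B in most tissues. ATP8B1 sits at the apical membrane of polarized epithelia, and its inherited loss causes a progressive intrahepatic cholestasis, a failure of bile flow in the liver.

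A gene was called changed when it differed by more than 2-fold with an adjusted p under 0.05. Of 6 genes used to check the transition, 3 were called in A549 and 5 in each of the other lines, where 8.02% (A549), 11.5% (HCC827) and 9.38% (NCI-H358) of all genes were called in either direction. CDH1, the epithelial cadherin, had log2 differences of -5.81, -2.95 and -3.94 for A549, HCC827 and NCI-H358, and EPCAM, an epithelial adhesion molecule, of -3.03, -2.69 and -2.92. CDH2, the neural cadherin, rose by 1.94, 3.26 and 2.04. VIM, vimentin, was at 0.79, 2.03 and 2.31, the first of which was not called, and SNAI1, a repressor of epithelial genes, at 0.52, 0.85 and 0.92 was called in no line. Of 5 epithelial markers, 3 were called lower in A549 (all genes, 3.87%) and 5 in each of the other lines (6.58% in HCC827 and 5.42% in NCI-H358), while none of 3 endothelial markers and 1 of 4 immune markers was called in any line. PTPRC, the defining leukocyte antigen, stayed between the 3.17 and 6.32 percentile of all genes in every group. The SD of log2 differences between arrays of a group ran from 0.163 to 0.282 over all genes. The highest values, 0.261 and 0.282, both involved replicate 1 of parental HCC827, and results that turn on this array are given with and without it.

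ATP8B1 was high in all parental cells and low in all mesenchymal cells. On the log2 scale, A549 read 9.55, 9.76 and 9.90 on the parental arrays and 6.62, 6.77 and 6.84 on the EMT arrays. In HCC827 the levels were 10.61, 10.30 and 10.17 against 5.31, 5.51 and 5.93. For NCI-H358 they were 9.40, 9.47 and 9.72 against 3.21, 3.17 and 3.49. No parental array overlapped any mesenchymal array, within a line or between lines. In bulk cultures such as these, fewer cells with the transcript and less transcript per cell cannot be told apart. The epithelial markers above fell in the same groups, and their part in the ATP8B1 values was not tested.

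The decrease in ATP8B1 was 7.96-fold in A549, 27.4-fold in HCC827 and 75.6-fold in NCI-H358, log2 differences of -2.99, -4.77 and -6.24. Leaving out any 1 array kept these between -3.09 and -2.91, between -4.95 and -4.64, and between -6.34 and -6.15. The parental means of the 3 lines lay close together, at 10.36 ± 0.22 in HCC827, 9.74 ± 0.18 in A549 and 9.53 ± 0.17 in NCI-H358 (SD, n = 3), and the arrays of A549 and NCI-H358 overlapped. The mesenchymal means were spread more widely, at 6.74 ± 0.11 for A549, 5.58 ± 0.32 for HCC827 and 3.29 ± 0.18 for NCI-H358, with no overlap between neighbours. The lines were thus farther apart after treatment than before it. In percentiles of all genes, ATP8B1 went from 87.3 to 55.6 in A549, from 92 to 38.9 in HCC827 and from 85.8 to 7.39 in NCI-H358. At the low end of the array scale a level and background signal cannot be separated, and the value in NCI-H358 lies there. In the whole table, 180 genes (0.907%) were called lower in all 3 lines, and because ATP8B1 was chosen for being among such genes, nothing is read from its being there.

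**Figure D1:**
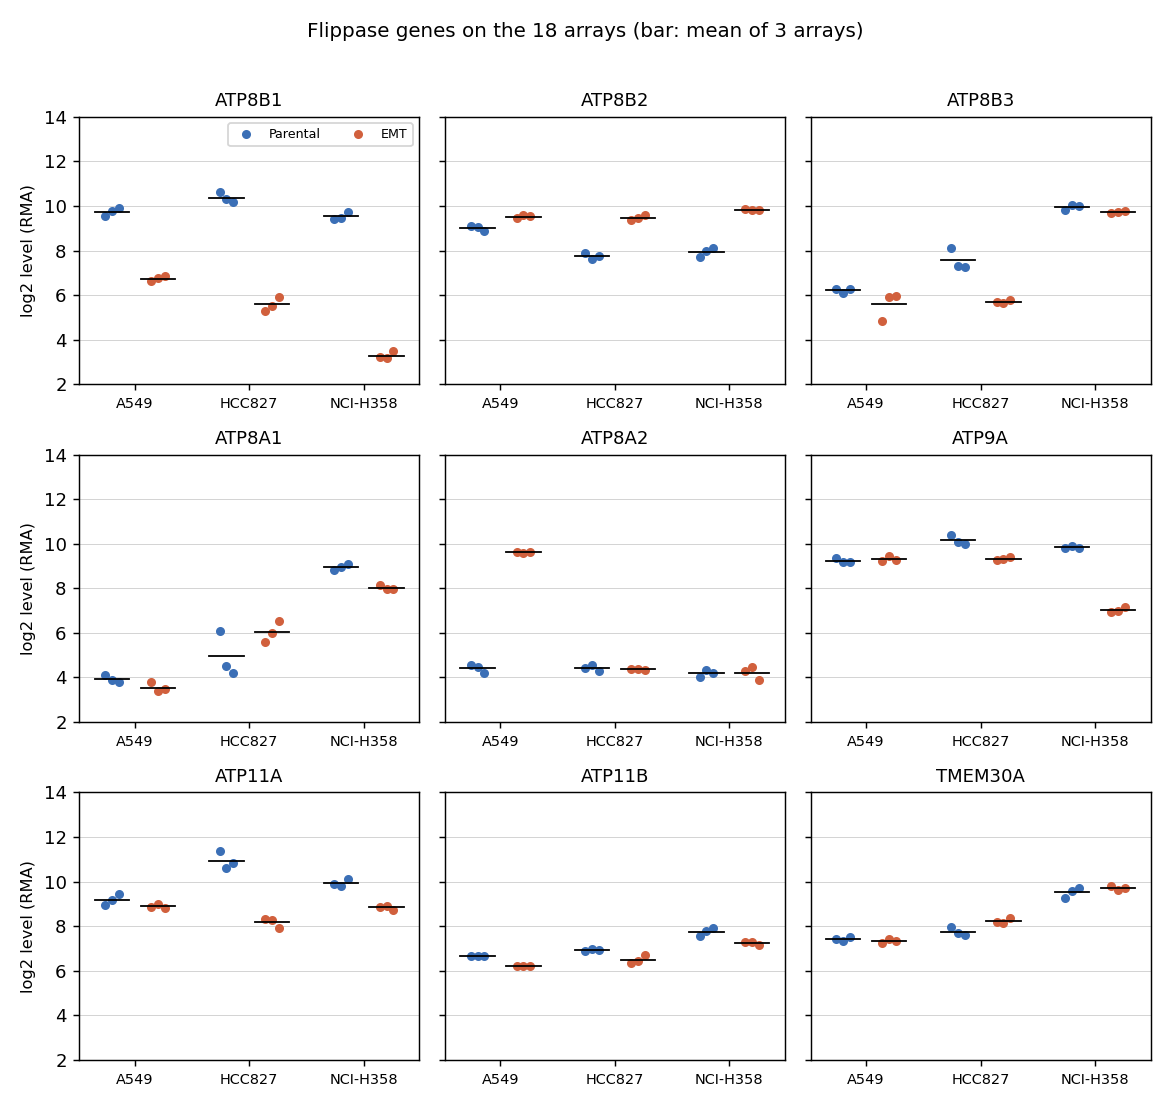
Log2 level (RMA, vertical axis) of the 9 flippase genes on each of the 18 arrays, by cell line (horizontal axis), with parental arrays in blue, EMT arrays in orange and a bar at the mean of 3 arrays. ATP8B1 lies between 9.40 and 10.61 on parental arrays and between 3.17 and 6.84 on EMT arrays, while ATP8A2 is high only on the EMT arrays of A549, at 9.59 to 9.64.

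The CDC50 subunits that P4-ATPases depend on did not share one pattern. TMEM30A, the broadly expressed subunit, was not called changed in any line. Its levels were 7.43, 7.33 and 7.50 in parental A549 and 7.22, 7.44 and 7.35 in mesenchymal A549, which overlapped. In HCC827 they were 7.94, 7.68 and 7.62 before and 8.18, 8.12 and 8.35 after treatment, without overlap, and in NCI-H358 9.27, 9.59 and 9.70 against 9.80, 9.64 and 9.72, with overlap. The log2 difference was -0.08 in A549 (95% interval -0.31 to 0.15, adjusted p = 0.597), 0.47 in HCC827 (0.24 to 0.70, adjusted p = 0.00166) and 0.20 in NCI-H358 (-0.03 to 0.43, adjusted p = 0.17). Each interval lies inside the 2-fold limits. The sign in A549 turned to 0.0514 when the table was quantile normalized. The TMEM30A probe set is of a type that can match several transcripts.

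TMEM30B, the second CDC50 subunit and a partner of ATP8B1, is not among the 9 genes and was measured as a further member of the family. It was at 10.39, 10.13 and 10.24 in parental HCC827 and at 5.57, 4.91 and 5.50 in mesenchymal HCC827. In NCI-H358 it was at 10.49, 10.63 and 10.75 against 4.06, 3.91 and 3.76. In A549 it was already low in parental cells, at 4.13, 4.37 and 3.83, and at 4.51, 3.95 and 4.29 after treatment. TMEM30B thus fell in both lines where it was high, while in A549 it was at the 17.9 percentile of all genes before and the 19 percentile after treatment. The decrease was 30.5-fold in HCC827 (log2 difference -4.93 ± 0.17 SE, adjusted p = 3.62e-13) and 105-fold in NCI-H358 (-6.71 ± 0.17 SE, adjusted p = 1.29e-14), and the difference in A549 was 0.14 (95% interval -0.23 to 0.51, adjusted p = 0.571). The lowest groups, parental and mesenchymal A549 and mesenchymal NCI-H358, lie near the low end of the array scale, where a level cannot be separated from background signal, so the folds against them are those of the fitted values only. The parental level in A549 was 70.7-fold below that of HCC827 and 91.2-fold below that of NCI-H358 (adjusted p = 8.34e-15 and 3.44e-15). The change in A549 differed from that in HCC827 by -5.07 and from that in NCI-H358 by -6.85 (each of these lines minus A549, adjusted p = 4.9e-11 and 1.11e-12). In A549, therefore, TMEM30B was low both when ATP8B1 was high and when it was low, and in the other lines both were high before and low after treatment.

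The promoter of TMEM30B is shown because this gene had the largest tested fall of the family and its window holds several E-boxes, the short element bound by the ZEB and SNAIL repressors of epithelial genes. The window runs from 250 bases before the transcription start to 50 bases after it (RefSeq, GRCh38.p14, chr14:61281289-61281588, minus strand), and capitals mark CACCTG or its reverse complement CAGGTG.
TMEM30B: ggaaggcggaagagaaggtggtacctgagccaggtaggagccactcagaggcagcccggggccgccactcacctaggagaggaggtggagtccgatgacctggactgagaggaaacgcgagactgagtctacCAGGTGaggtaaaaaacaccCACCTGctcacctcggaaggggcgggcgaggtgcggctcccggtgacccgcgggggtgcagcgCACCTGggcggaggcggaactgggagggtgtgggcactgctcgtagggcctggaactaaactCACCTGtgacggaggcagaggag
The window holds 4 matches, at positions -118, -98, -35 and 28 from the start. At least 1 match was present in 20.6% of the 35116 promoter windows of this length in the table, and 4 or more in 59 windows (0.168%), a number chosen after the matches in TMEM30B had been counted. ATP10B, which was not called in any line, also has 4 matches in the window of its second start. A match is a description of the sequence and not evidence of binding. On these arrays ZEB1 rose by 4.18 in HCC827 and 3.66 in NCI-H358 and differed by 0.79 in A549 on the log2 scale. Its parental mean was already 9.3 in A549, against 6.0 in HCC827 and 6.1 in NCI-H358. SNAI1 was called in no line. The part of ZEB1 or SNAI1 in the fall of TMEM30B was not tested.

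ATP8B2, a paralog of the same ATP8B subgroup and a plasma membrane flippase for phosphatidylcholine, moved opposite to ATP8B1. In HCC827 it was at 7.87, 7.61 and 7.77 on parental arrays and at 9.35, 9.46 and 9.61 on EMT arrays. In NCI-H358 it was at 7.70, 7.97 and 8.12 against 9.87, 9.82 and 9.81. In A549 it was at 9.09, 9.04 and 8.87 against 9.44, 9.58 and 9.53. The arrays did not overlap in any line, and the mesenchymal means of the 3 lines came to within a narrow span, 9.47 to 9.84, although the parental means ran from 7.75 to 9.0. ATP8B2 rose 3.31-fold in HCC827 (log2 difference 1.73 ± 0.10 SE, adjusted p = 2.34e-10) and 3.75-fold in NCI-H358 (1.91 ± 0.10 SE, adjusted p = 8.07e-11). In A549 the difference of 0.52 ± 0.10 SE (adjusted p = 0.000463) was 1.43-fold and below the 2-fold limit. The change was larger than that of A549 by 1.21 in HCC827 and by 1.39 in NCI-H358 (adjusted p = 2.65e-06 and 5.54e-07), and that of the latter 2 lines differed by 0.18 (95% interval -0.12 to 0.48).

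ATP8B3, a member known mainly from the testis and the sperm acrosome, was called lower in 1 line. In HCC827 its level went from 8.12, 7.30 and 7.25 to 5.67, 5.66 and 5.78, a 3.62-fold decrease (log2 difference -1.86 ± 0.24 SE, adjusted p = 5.3e-06). Without replicate 1 of parental HCC827, the highest of these arrays, the difference was -1.57 (adjusted p = 2.95e-05). In A549 the arrays read 6.28, 6.11 and 6.28 against 4.85, 5.92 and 5.98, and the difference of -0.64 (adjusted p = 0.041) shrank to -0.275 (adjusted p = 0.27) when the 1 low EMT array was left out. In NCI-H358, where the level was highest, it was 9.81, 10.06 and 10.02 against 9.67, 9.71 and 9.78, a difference of -0.24 (adjusted p = 0.487). The change in HCC827 was lower than that in A549 by a contrast of -1.21 (adjusted p = 0.00817), which fell below the 2-fold limit at -0.933 without replicate 1 of parental HCC827. The contrast of NCI-H358 minus HCC827 was 1.61 (adjusted p = 0.00111).

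ATP8A1 and ATP8A2 are phosphatidylserine flippases, the former of the Golgi and endosomes in many cell types and the latter best known from neurons and photoreceptors. ATP8A2 was the member with the largest tested change, and it rose in A549 alone among the 3 lines. In parental A549 it was at 4.56, 4.47 and 4.21, near the 21.8 percentile of all genes, and in mesenchymal A549 at 9.64, 9.59 and 9.61, at the 86.6 percentile. In HCC827 it was at 4.41, 4.54 and 4.30 against 4.40, 4.38 and 4.33, and in NCI-H358 at 4.04, 4.32 and 4.19 against 4.27, 4.48 and 3.88. The 3 mesenchymal A549 arrays thus stood apart from the other 15, which overlapped from group to group. The rise in A549 was 36.8-fold (log2 difference 5.20 ± 0.13 SE, adjusted p = 2.65e-15), and leaving out any 1 array kept it between 5.10 and 5.28. The parental level cannot be separated from background signal, so the size of the rise is that of the fitted values only. The differences in HCC827 and NCI-H358 were -0.05 (95% interval -0.31 to 0.21) and 0.02 (-0.24 to 0.29), with a sign that changed with the normalization or with 1 array left out. The contrasts against A549 were -5.25 for HCC827 and -5.18 for NCI-H358 (adjusted p = 6.47e-13 and 5.98e-13).

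The first annotated starts of ATP8A2 and ATP8B2, both among the members called higher, are shown with the same element in capitals. They can thus be set beside the window of the falling TMEM30B. They lie at chr13:25371724-25372023 and chr1:154327497-154327796, both on the plus strand (RefSeq, GRCh38.p14).
ATP8A2: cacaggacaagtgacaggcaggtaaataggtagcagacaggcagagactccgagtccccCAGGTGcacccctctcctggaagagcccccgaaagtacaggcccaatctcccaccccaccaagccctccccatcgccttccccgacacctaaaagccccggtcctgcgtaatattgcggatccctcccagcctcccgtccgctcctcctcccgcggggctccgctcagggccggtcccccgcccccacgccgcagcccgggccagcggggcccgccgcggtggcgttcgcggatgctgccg
ATP8B2: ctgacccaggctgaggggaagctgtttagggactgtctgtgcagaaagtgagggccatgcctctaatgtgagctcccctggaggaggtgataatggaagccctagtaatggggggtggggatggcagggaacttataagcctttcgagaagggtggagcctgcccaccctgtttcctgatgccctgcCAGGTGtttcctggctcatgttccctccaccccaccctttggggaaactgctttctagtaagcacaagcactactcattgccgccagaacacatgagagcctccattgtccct
Each holds 1 match, at position -191 in ATP8A2 and -63 in ATP8B2, and the second start of either gene has none. The windows of ATP8A1, which was also called higher in HCC827, and of ATP8B3, ATP9A and ATP11A hold none. The SMAD-type element CAGAC or GTCTG, searched on both strands, was found in 45.3% of all windows. Among the members it was in the first windows of ATP8A2 and ATP8B2 and in that of ATP11A, and none of these matches overlapped an E-box. Matches were therefore found both in members that rose (ATP8A2 and ATP8B2) and in genes that fell (TMEM30B for the E-box, ATP11A for the SMAD-type element). The windows of ATP9B and ATP10A, which fell in some lines, and of ATP10D, which rose in some, hold neither element. RefSeq windows were matched for 6 of the 9 genes and for all 6 other family genes counted here. None was available for ATP8B1, ATP11B and TMEM30A, so these genes were not searched.

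Of the 8 tested genes, ATP8A1 differed most between the parental lines. It was at 8.83, 8.94 and 9.10 in parental NCI-H358, at 6.10, 4.53 and 4.20 in parental HCC827 and at 4.10, 3.87 and 3.78 in parental A549. The level in NCI-H358 was 32.8-fold above A549 and 16.1-fold above HCC827 (adjusted p = 6.31e-10 and 1.87e-08). The fold against A549 is that of the fitted values only. In parental A549, ATP8A1 lay at the 15.6 percentile of all genes, where a level cannot be separated from background signal. After treatment it read 8.13, 7.99 and 7.99 in NCI-H358, a log2 difference of -0.92 ± 0.34 SE (adjusted p = 0.0373) below the 2-fold limit, and 3.80, 3.38 and 3.47 in A549, a difference of -0.36 (95% interval -1.08 to 0.35).

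In HCC827 the mesenchymal levels of ATP8A1 were 5.61, 5.99 and 6.54, which overlapped the parental arrays because replicate 1 of parental HCC827 stood at 6.10. The difference was 1.10 ± 0.34 SE (2.15-fold, adjusted p = 0.0123) and passed the call, but this call was not robust. It rose to 1.68 (adjusted p = 4.39e-06) without replicate 1 of parental HCC827. It was lost without replicate 2 of parental HCC827 (0.896, adjusted p = 0.0643), without replicate 3 (0.734, adjusted p = 0.0819), without replicate 3 of mesenchymal HCC827 (0.858, adjusted p = 0.07) and in a fit of the HCC827 arrays alone (adjusted p = 0.099). The contrast of HCC827 minus A549, 1.47 (adjusted p = 0.0197), was lost when any of the same 3 arrays was left out, with values of 1.26, 1.10 and 1.22 (adjusted p = 0.0553, 0.0568 and 0.0576). The contrast of NCI-H358 minus HCC827, -2.02 (adjusted p = 0.00262), stayed called with each array left out in turn, between -2.60 and -1.65.

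ATP9A, a P4-ATPase of endosomes and the Golgi that works without a CDC50 subunit, fell in NCI-H358. Its levels there were 9.83, 9.88 and 9.79 on parental arrays and 6.92, 6.97 and 7.17 on EMT arrays, a 7.03-fold decrease (log2 difference -2.81 ± 0.10 SE, adjusted p = 5e-13). In HCC827 they were 10.40, 10.06 and 10.01 against 9.29, 9.32 and 9.40, without overlap and 1.76-fold lower (-0.82 ± 0.10 SE, adjusted p = 2.39e-06), which is under the 2-fold limit. In A549 they were 9.36, 9.19 and 9.16 against 9.21, 9.43 and 9.26, with overlap, and the difference was 0.06 (95% interval -0.15 to 0.27). The parental lines lay within 1.89-fold of each other, and after treatment NCI-H358 stood apart from the other lines. The contrast of NCI-H358 minus A549 was -2.88 and that of NCI-H358 minus HCC827 was -2.00 (adjusted p = 4.81e-11 and 7.32e-09).

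ATP11A and ATP11B transport phosphatidylserine and phosphatidylethanolamine, the former at the plasma membrane and the latter on endosomes. ATP11A was called lower in HCC827 and NCI-H358. In HCC827 it went from 11.36, 10.60 and 10.83 to 8.31, 8.28 and 7.93, a 6.77-fold decrease (log2 difference -2.76 ± 0.16 SE, adjusted p = 2.7e-10). In NCI-H358 it went from 9.89, 9.82 and 10.11 to 8.85, 8.92 and 8.74, a 2.15-fold decrease (-1.10 ± 0.16 SE, adjusted p = 2.78e-05). In A549 it read 8.96, 9.16 and 9.45 against 8.87, 9.0 and 8.82, which overlapped (-0.30, 95% interval -0.64 to 0.05). The order of the changes among the lines was thus not that of ATP8B1, with HCC827 the lowest. The contrast of HCC827 minus A549 was -2.46 and that of NCI-H358 minus HCC827 was 1.66 (adjusted p = 1.75e-07 and 2.06e-05). The ATP11A probe set can match several transcripts.

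ATP11B was lower by a small difference in every line. It was at 6.64, 6.68 and 6.65 against 6.22, 6.23 and 6.19 in A549, at 6.88, 6.99 and 6.92 against 6.36, 6.42 and 6.69 in HCC827, and at 7.57, 7.77 and 7.92 against 7.27, 7.29 and 7.15 in NCI-H358. The parental arrays lay above the mesenchymal arrays in each line. The log2 differences were -0.44, -0.44 and -0.52 (each ± 0.09 SE, adjusted p = 0.000679, 0.000613 and 0.000154), which are 1.36-fold, 1.35-fold and 1.43-fold and below the 2-fold limit. The contrasts between lines were 0.00 (HCC827 minus A549), -0.08 (NCI-H358 minus A549) and -0.08 (NCI-H358 minus HCC827), with 95% intervals that together span -0.35 to 0.27. The probe set of ATP11B can also match several transcripts.

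Counted together, 1 of the 8 tested genes was called in A549, where the background over all 19849 genes was 8.02%. It was the rise of ATP8A2, against 4.15% of all genes called higher and 3.87% called lower. In HCC827, 4 of 8 were called (all genes, 11.5%), with ATP8A1 and ATP8B2 higher (4.89%) and ATP8B3 and ATP11A lower (6.58%). In NCI-H358, 3 of 8 were called (9.38%), with ATP8B2 higher (3.96%) and ATP9A and ATP11A lower (5.42%). None of the 8 was called in the same direction in all 3 lines, compared with 0.907% of all genes lower and 0.761% higher. With the adjusted p alone, 4, 7 and 5 of the 8 passed in the lines in the same order, while 43.4%, 45.8% and 41.4% of all genes did so, and ATP8B2 (higher) and ATP11B (lower) passed in all 3. To pick metabolism-associated genes, the study asked for more than 5-fold and an adjusted p under 1e-05 in all 3 lines. With these thresholds in each line on its own, 1 of the 8 genes passed per line (1.9%, 2.95% and 2.17% of all genes). They were ATP8A2, ATP11A and ATP9A in turn. The median log2 difference of the 8 was -0.19, -0.24 and -0.38, beside -0.02, 0.01 and 0.02 over all genes. For a single gene, the smallest two-sided p of an exact permutation test on 3 and 3 arrays is 0.1, so the calls were taken from the fit across all genes.

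**Figure D2:**
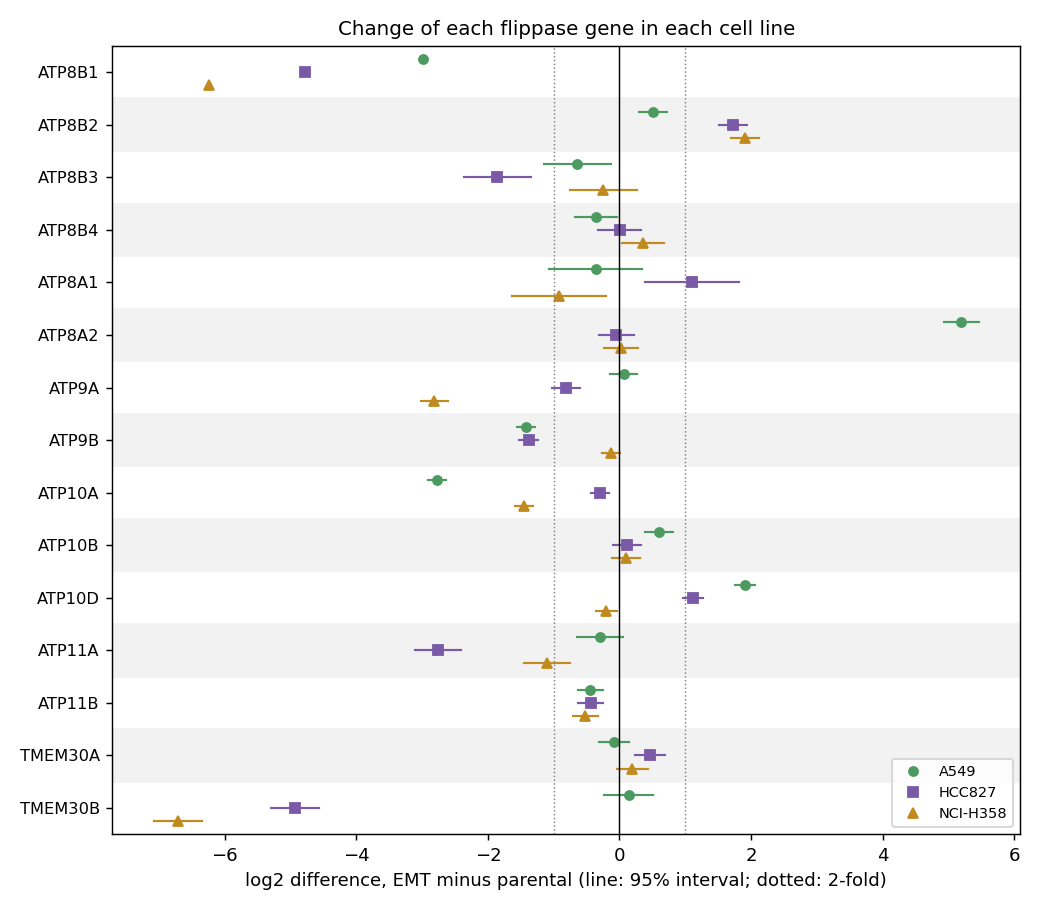
Log2 difference of EMT minus parental cells (horizontal axis) for the 9 flippase genes and 6 other family genes (vertical axis) in A549 (circles), HCC827 (squares) and NCI-H358 (triangles). Horizontal lines are 95% intervals of the fit, drawn for all genes but ATP8B1, and dotted lines mark a 2-fold change. ATP8B1 is at -2.99, -4.77 and -6.24, TMEM30B is at -4.93 in HCC827 and -6.71 in NCI-H358 but at 0.14 in A549, and ATP8A2 stands at 5.20 in A549.

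The change upon EMT differed between lines for many of the 8 genes. It differed by more than 2-fold between A549 and HCC827 for 5 of them (all genes, 13.4%), namely ATP8A1, ATP8A2, ATP8B2, ATP8B3 and ATP11A. Between A549 and NCI-H358 it did so for 3 (12.7%), ATP8A2, ATP8B2 and ATP9A, and between HCC827 and NCI-H358 for 4 (11%), ATP8A1, ATP8B3, ATP9A and ATP11A. These comparisons share arrays with each other and with the changes above.

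The lines also differed before treatment. Parental HCC827 and A549 differed in 4 of the 8 genes (all genes, 18.8%), parental NCI-H358 and A549 in 5 (20.4%), and parental NCI-H358 and HCC827 in 3 (15.2%). The 3 of the last comparison were ATP8A1, ATP8B3 and TMEM30A, all higher in NCI-H358. TMEM30A was 4.29-fold higher in parental NCI-H358 than in A549 and 3.42-fold higher than in HCC827 (adjusted p = 1.93e-11 and 3.16e-10), a larger step than its change upon EMT in any line. ATP8B3 was 13.3-fold and 5.30-fold higher there (adjusted p = 3.93e-10 and 1.73e-07). ATP11A was highest in parental HCC827, 3.33-fold above A549 (adjusted p = 6.2e-08), and ATP8B2 was lowest there, 2.38-fold below A549 (adjusted p = 8.46e-09). ATP11B in parental NCI-H358 was 2.14-fold above A549 (adjusted p = 9.83e-09). ATP8A1 passed between HCC827 and A549 at 1.03 (adjusted p = 0.0151) but not without replicate 1 of parental HCC827 (0.449, adjusted p = 0.0763). This call was also lost without replicate 3 of parental A549 (0.959), with median centring (0.975) and with quantile normalization (0.988). It was lost as well in a limma fit of these parental arrays alone (adjusted p = 0.0769).

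Of the other P4-ATPases and CDC50 subunits, 7 are counted here, of which 6 were in the table and TMEM30C was not. In A549 1 was called higher (all genes, 4.15%) and 2 lower (3.87%), in HCC827 1 higher (4.89%) and 2 lower (6.58%), and in NCI-H358 none higher (3.96%) and 2 lower (5.42%). ATP10A, a plasma membrane phosphatidylcholine flippase, went from 8.34, 8.44 and 8.45 to 5.71, 5.56 and 5.65 in A549, a 6.82-fold decrease (log2 difference -2.77 ± 0.07 SE, adjusted p = 2.04e-15), and fell 2.75-fold in NCI-H358 (-1.46, adjusted p = 8.35e-12). Its difference in HCC827 was -0.29 (adjusted p = 0.0013). ATP9B, the partner paralog of ATP9A in the Golgi, fell by 1.42 in A549 and by 1.38 in HCC827 on the log2 scale (adjusted p = 1.29e-11 and 1.37e-11) and was at -0.13 in NCI-H358. ATP10D, a glucosylceramide flippase, rose by 1.91 in A549 and 1.12 in HCC827 (adjusted p = 1.32e-12 and 1.05e-09) and was at -0.20 in NCI-H358. ATP10B, read by a probe set that can match several transcripts, was at 0.60, 0.11 and 0.10, under the 2-fold limit. ATP8B4 lay at or below the 8.45 percentile of all genes in every group, so that its level cannot be told from background signal.

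**Figure D3:**
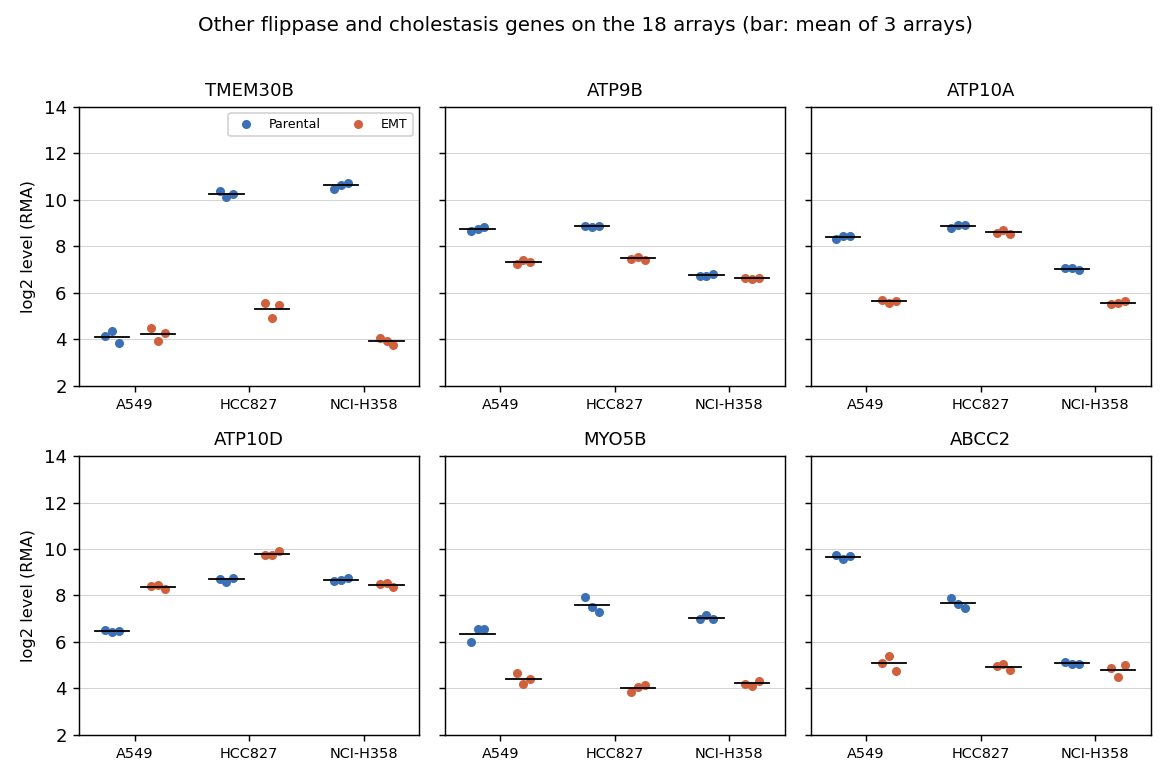
Log2 level (RMA, vertical axis) of 4 further flippase genes and of MYO5B and ABCC2 on each array, by cell line (horizontal axis), with parental arrays in blue, EMT arrays in orange and a bar at the mean of 3 arrays. TMEM30B lies between 10.13 and 10.75 on the parental arrays of HCC827 and NCI-H358 and between 3.76 and 5.57 on their EMT arrays, while all 6 A549 arrays lie between 3.83 and 4.51.

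Genes of related function were counted from lists drawn up with earlier results of these data known. Among 9 genes of hereditary cholestasis, the disease group of ATP8B1, none was called higher in any line, and 3, 2 and 1 were called lower in A549, HCC827 and NCI-H358, beside 3.87%, 6.58% and 5.42% of all genes. MYO5B, a motor of apical recycling endosomes, was called lower in all 3 lines, with log2 differences of -1.94, -3.58 and -2.82. Its mesenchymal means lay at the 21.3, 16.3 and 18.3 percentile of all genes in A549, HCC827 and NCI-H358. A level there cannot be separated from background signal, so these sizes are those of the fitted values only. MYO5B was at 7.0, 7.15 and 6.97 on the parental arrays of NCI-H358 and at 4.20, 4.11 and 4.33 on the EMT arrays. ABCC2, a canalicular organic anion pump, went from 9.76, 9.55 and 9.69 to 5.10, 5.40 and 4.73 in A549 and from 7.89, 7.63 and 7.47 to 4.98, 5.04 and 4.79 in HCC827. Its log2 differences were -4.59 and -2.72, both called, and -0.29 in NCI-H358, where it was already low at 5.15, 5.06 and 5.03. USP53, a tight junction protein named after its values were seen, was called lower in A549 alone, at -1.07, with -0.15 in HCC827 and -0.94 in NCI-H358, and whether these changes differ was not tested. The bile salt pump ABCB11, the phospholipid floppase ABCB4, the bile acid receptor NR1H4 and the conjugating enzyme BAAT were not called in any line. The median over the list was -0.04, -0.17 and -0.14.

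Phospholipid scramblases collapse the asymmetry that flippases build, and 14 of the 15 listed were in the table. In A549 2 were called higher (all genes, 4.15%) and none lower (3.87%), in HCC827 1 higher (4.89%) and 4 lower (6.58%), and in NCI-H358 none higher (3.96%) and 1 lower (5.42%). ANO4, an anoctamin, rose in A549 from 3.48, 3.66 and 3.24 to 9.90, 9.73 and 9.82, and in HCC827 from 3.86, 4.08 and 4.13 to 9.01, 8.86 and 9.30. In NCI-H358 its arrays overlapped, at 3.85, 3.75 and 3.63 against 3.82, 3.71 and 4.15. Its log2 differences were 6.36, 5.04 and 0.15, and the parental levels, at the 9.96 percentile in A549 and the 16.7 percentile in HCC827, cannot be separated from background signal. PLSCR1 was at 0.78, -1.35 and -1.64, and the last 2 were called lower.

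The calls in 4 other lists can be read against the same shares of all genes, 4.15%, 4.89% and 3.96% higher and 3.87%, 6.58% and 5.42% lower in A549, HCC827 and NCI-H358. Of 7 ABC lipid exporters, which move lipids outward, 1, 2 and 1 were called lower for A549, HCC827 and NCI-H358, with 1 called higher in the last, and ABCA7 was lower in HCC827 and NCI-H358 (-1.05 and -1.14). Of 12 genes of phospholipid synthesis, 1 was called lower in A549 and none in the other lines. Of 7 endosome and Golgi partners of flippases, 1 was called higher in A549 and 1 lower in NCI-H358. Of the 22 other P-type ATPases, 1 was called higher and 2 lower in A549, 1 higher in HCC827 and 2 lower in NCI-H358. ATP2B4, a plasma membrane calcium pump, was called lower in A549 and NCI-H358 and was at -2.34, -0.18 and -1.11.

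The genes whose levels followed ATP8B1 most closely over the 18 arrays were ERMP1 (Pearson r = 0.992), LOC729680 (0.987), PERP (0.978), LAMA5 (0.977) and MAP3K5 (0.975). The most opposed were LEPREL4 (-0.97), DRAXIN (-0.96), ARID5A (-0.959), MFSD11 (-0.958) and CALR (-0.957). The arrays fall into 6 groups, with the parental and mesenchymal arrays apart, so these values mainly describe the group means. ERMP1, a metallopeptidase of the endoplasmic reticulum, had log2 differences of -1.02, -1.89 and -2.28 in A549, HCC827 and NCI-H358, in an order that its choice by correlation with ATP8B1 fixed. Among the flippase genes, ATP9A (0.835), ATP11A (0.73), ATP9B (0.662) and TMEM30B (0.644) had the highest r with ATP8B1, and ATP8B2 had the lowest (-0.843). ATP8B3 (-0.0705), ATP8A2 (-0.121) and ATP11B (0.151) were near 0.

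Over all 6 groups, the range of group means was 7.07 log2 units for ATP8B1, which was chosen by its fall and whose lowest group is near background. It was 5.43 for ATP8A2, 5.40 for ATP8A1 and 4.38 for ATP8B3. It was 3.13 for ATP9A, 2.76 for ATP11A, 2.38 for TMEM30A, 2.09 for ATP8B2 and 1.54 for ATP11B. For ATP8B1 and ATP11A the 3 parental groups were the 3 highest, and for ATP8B2 the 3 mesenchymal groups were. For ATP8A1, ATP8B3, ATP11B and TMEM30A both groups of NCI-H358 were above every other group. For ATP8A2 the highest group, mesenchymal A549, stood alone, and for ATP9A the lowest, mesenchymal NCI-H358.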

How the data were processed

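The 18 arrays measured transcripts of cultured cells. The authors normalized them by RMA and deposited log2 values for 19849 genes, 1 probe set per gene, with the rule for choosing the probe set and detection calls not given in the sources used here. A probe set reads only the transcripts it matches, and RMA compresses low levels. Array medians were 6.31 to 6.47. The RefSeq gene table held 19326 of the IDs. The members and lists were chosen with earlier results of these data known. All arrays were fitted at once with limma 3.58.1 (R 4.3.3; lmFit, eBayes; 6 groups, no covariate), and p-values were adjusted over all genes by Benjamini-Hochberg. A call required more than 2-fold with an adjusted p under 0.05. Differences between lines were contrasts in this fit. The study describes the arrays of a group as separate biological samples made in parallel, the labels do not say so, and p-values measure the spread between these samples. The 3 arrays per group limit the precision. Genes outside the 9 could be named from each list where called the same way in all 3 lines. So could at most 2 per list with the largest mean change among genes called the same way in at least 2 lines. The 5 most and 5 least correlated with ATP8B1 were named beside them, and exceptions are stated. The steps were tested on simulated data. The alternatives were median centring, quantile normalization, a separate fit, leaving out dim probe sets and an intensity trend. Further alternatives were the study's thresholds for metabolism-associated genes, the t-test of its methods, and each array left out. Some genes of the lists are not reported here, were left out of every list count, and were not chosen by their values.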

Additional observations from a re-analysis of the deposited data

Results flagged for a closer look

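The change upon EMT differed between cell lines by more than 2-fold, by a contrast in the fit of all arrays, for the genes below. Over all genes, 13.4% passed for HCC827 minus A549, 12.7% for NCI-H358 minus A549 and 11% for NCI-H358 minus HCC827. Contrasts are log2 values of the first line minus the second, and they share arrays.

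The contrasts of HCC827 minus A549 were 1.47 for ATP8A1 (adjusted p = 0.0197), -5.25 for ATP8A2 (adjusted p = 6.47e-13), 1.21 for ATP8B2 (adjusted p = 2.65e-06), -1.21 for ATP8B3 (adjusted p = 0.00817) and -2.46 for ATP11A (adjusted p = 1.75e-07). That of ATP8B3 was -0.933 without replicate 1 of parental HCC827, and that of ATP8A1 lost its call without any of 3 arrays. Among the other family genes they were 2.48 for ATP10A and -5.07 for TMEM30B.

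The contrasts of NCI-H358 minus A549 were -5.18 for ATP8A2 (adjusted p = 5.98e-13), 1.39 for ATP8B2 (adjusted p = 5.54e-07) and -2.88 for ATP9A (adjusted p = 4.81e-11). They were 1.29 for ATP9B, 1.31 for ATP10A, -2.11 for ATP10D and -6.85 for TMEM30B.

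The contrasts of NCI-H358 minus HCC827 were -2.02 for ATP8A1 (adjusted p = 0.00262), 1.61 for ATP8B3 (adjusted p = 0.00111), -2.00 for ATP9A (adjusted p = 7.32e-09) and 1.66 for ATP11A (adjusted p = 2.06e-05). They were 1.26 for ATP9B, -1.17 for ATP10A, -1.32 for ATP10D and -1.78 for TMEM30B.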

How the results depend on the processing

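Counts of the 8 tested genes depended on the thresholds. With the study's thresholds for metabolism-associated genes they were 1 in HCC827 and 1 in NCI-H358. For the difference of change they were 2 between A549 and HCC827 and 0 between HCC827 and NCI-H358. For parental cells they were 0 between A549 and HCC827 and 2 between A549 and NCI-H358. With the adjusted p alone they were 4, 7 and 5 in A549, HCC827 and NCI-H358, and for parental cells 7 between A549 and HCC827 and 6 between HCC827 and NCI-H358. For the difference of change between HCC827 and NCI-H358, the limma fit gave 4 at an adjusted p below 0.05. Shares of all genes at these thresholds were counted for the changes upon EMT only, so nothing is read from the other counts.

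Signs reversed only for differences near 0 that were not called. With median centring, ATP8A2 was at 0.0148 upon EMT in HCC827 and at -0.0436 for parental HCC827 minus A549, and with quantile normalization the latter was -0.00136 and TMEM30A in A549 was 0.0514. With each array left out in turn, ATP8A2 ran from -0.107 to 0.0105 in HCC827, from -0.113 to 0.187 in NCI-H358, from -0.0626 to 0.237 for NCI-H358 minus HCC827 and from -0.0944 to 0.0817 for parental HCC827 minus A549. ATP9A in A549 ran from -0.00178 to 0.124. The ATP11B contrasts ran from -0.0964 to 0.0672 (HCC827 minus A549), from -0.169 to 0.0102 (NCI-H358 minus A549) and from -0.173 to 0.0214 (NCI-H358 minus HCC827).

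ATP8A1 in HCC827 lost its call in a separate fit (adjusted p = 0.099), by the methods' t-test (adjusted p = 0.283) and without 3 of the arrays. Parental ATP8B2 in NCI-H358 minus A549 was -0.956 without NCI-H358 replicate 1. Of 72 gene results, 23 kept their direction and side of the threshold under every alternative. No paired analysis was possible because the array labels share no replicate numbers between groups. The cause of these dependences was not tested. Probe signal near background limits what can be said of ATP8A2, ATP8A1, ATP8B1, TMEM30B, ANO4 and MYO5B in their lowest groups.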
